A study of Mus musculus with 6 samples.

Results

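Fatty acids reach spinal cord cells bound to carrier proteins, are activated to coenzyme A thioesters, and are then desaturated and elongated into membrane lipids or passed to mitochondria and peroxisomes for oxidation. Astrocytes hold much of this machinery and are a source of polyunsaturated fatty acids and lipoproteins for neurons. This report follows 9 genes of these steps, chosen by name: the binding proteins Fabp7 and Fabp5, the lipoprotein carrier Clu, the acyl-CoA synthetase Acsbg1, the desaturases Fads2 and Scd2, the elongase Elovl5, the mitochondrial gatekeeper Cpt1a and the lipid-sensing receptor Ppara. They are 9 of the 35275 genes in the deposited tables, and all 9 were among the 16137 genes that passed the filter on low counts.

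Poly(A) RNA of whole spinal cord was sequenced from 3 Sox2 cKO and 3 Ctrl mice of the C57BL/6 strain. The study's methods give 2 females and 1 male per group, without naming the libraries. Sox2 cKO mice carried mGfap-Cre:Sox2fl/fl, so that Sox2 is lost from cells in which the mouse Gfap promoter drives Cre, which are mostly astrocytes. The labels give the Ctrl mice as mGfap-Cre:Sox2+/+, whereas the study's methods describe littermates with floxed Sox2 and without Cre. The labels give an age of 90 days, and the protocol gives 80 days. As a minimum RNA integrity number the labels give 6.8 for every sample, and the study's methods give a higher one. Neither is the value of a single library. The deposited columns carry only a number: even numbers (2, 4 and 6) were assigned to Ctrl, odd numbers (1, 3 and 5) to Sox2 cKO, and the mouse behind each number is not known.

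Libraries held 21507911 to 28392184 counts, and the totals of the groups overlapped. Sox2 itself, measured as counts scaled to the library size with TMM factors (CPM), was 14.8 to 29.5 CPM in Ctrl and 2.69 to 3.16 CPM in Sox2 cKO. All 20 astrocyte markers were present, and 8 of them passed the test as lower in Sox2 cKO, 0 as higher by edgeR and 1 as higher by DESeq2. Their summed level was 11660 to 14320 CPM in Ctrl and 9163 to 9519 CPM in Sox2 cKO. For oligodendrocytes, the other main glial source of several of these transcripts, the 10 markers summed to 32000 to 35880 CPM in Ctrl and 32410 to 34880 CPM in Sox2 cKO. Mbp, the most abundant of them, averaged 13120 CPM in Ctrl and 14920 CPM in Sox2 cKO. By edgeR 0 of the 10 passed, while DESeq2 called 3 as lower and an edgeR fit corrected for gene length called 2 as lower. All 7 oligodendrocyte precursor markers were lower and 6 passed by edgeR, at a median log2 fold change of -0.43. They summed to 151 to 209 CPM in Sox2 cKO against 245 to 299.5 CPM in Ctrl. Of these, 3 passed as lower in a fit that also corrected for gene length. Sums were also separate for ependymal markers, at 52.9 to 54.7 CPM in Sox2 cKO against 58.7 to 71.7 CPM in Ctrl, and for endothelial markers, at 344 to 466.5 CPM against 326 to 337 CPM. By edgeR 2 of 10 ependymal markers passed as lower, and 2 of 10 endothelial markers passed as higher. Flt1, the most abundant endothelial marker, had a log2 fold change of -0.26 with an edgeR adjusted p of 0.18. Adipocyte markers summed to 4.23 CPM in Sox2 cKO library 5 and to 0.449 to 0.772 CPM in the other libraries. Ctrl library 6 was lowest for meningeal fibroblast markers, at 239.6 CPM against 491.8 to 650.9 CPM in the other libraries. It was also lowest for Schwann cell markers, at 26.8 CPM against 51.1 to 73.7 CPM. Red blood cell markers were highest in this library, at 165.5 CPM against 57.1 to 98.45 CPM, as was the astrocyte sum. All 7 neutrophil markers were higher in Sox2 cKO and 6 passed by edgeR, at a sum of 22.8 to 71.4 CPM against 11.7 to 18.7 CPM in Ctrl. Because RNA of the whole tissue was measured, fewer astrocytes and less RNA per astrocyte cannot be told apart. The share of each cell type in the results below was not tested.

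SOX2 is a transcription factor, and the study lists motif sites under its strongest binding peaks. The peaks come from chromatin data of adult cerebral cortex outside this series, not from spinal cord. Of the 9 genes and 141 further genes of fatty acid metabolism, 4 had a listed site within 1000 bases of the gene's start, and Fabp7 and Acsbg1 were the 2 members among them. The sites are shown for their position near these members, and whether SOX2 acts through them was not tested. Each is printed with 9 bases on either side, the listed 11 bases in capitals, on the strand the listing gives (mm10, minus strand for Fabp7, Acsbg1 and Acot1, plus strand for Apoe).
Fabp7, chr10:57784580-57784590: aactgggagGAAAGAAAAGGgaaggataa
Acsbg1, chr9:54661859-54661869: gaaaaaccaGGAAGAAAAGGaaagtttta
Apoe, chr7:19699234-19699244: cctcccccgCCAACAAAGGGagcggacac
Acot1, chr12:84009326-84009336: tgtttgctaAGAACAAAGAAcctgctgga
The Fabp7 site began 343 bases before the RefSeq start, and the Acsbg1 site began 16 bases after it, inside the transcribed part. The SOX core CAAAG was present in the printed stretch, on either strand, for Apoe and Acot1 and was not found in those of Fabp7 and Acsbg1. Neither non-member near a site passed the test, with a log2 fold change (Sox2 cKO over Ctrl) of 0.15 for Apoe and an edgeR adjusted p of 0.28, and 0.10 for Acot1 and an adjusted p of 0.64.

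RefSeq promoter windows (GRCm38.p6, 250 bases before to 50 after the start) matched 6 of the 9 members, with none for Fabp5, Clu and Scd2. The 250 bases before the start are printed for 3 of them on the gene's strand, with CAAAG or its reverse complement in capitals: Acsbg1 and Fabp7, which lie near a listed site, and Fads2, whose RNA gave the smallest adjusted p of the 9.
Acsbg1, chr9:54661886-54662135, minus strand: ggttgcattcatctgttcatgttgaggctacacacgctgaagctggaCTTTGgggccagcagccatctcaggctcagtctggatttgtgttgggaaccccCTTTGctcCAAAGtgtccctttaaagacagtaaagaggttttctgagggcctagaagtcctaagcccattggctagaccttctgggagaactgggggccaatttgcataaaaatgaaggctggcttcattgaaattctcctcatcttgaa
Fabp7, chr10:57784673-57784922, plus strand: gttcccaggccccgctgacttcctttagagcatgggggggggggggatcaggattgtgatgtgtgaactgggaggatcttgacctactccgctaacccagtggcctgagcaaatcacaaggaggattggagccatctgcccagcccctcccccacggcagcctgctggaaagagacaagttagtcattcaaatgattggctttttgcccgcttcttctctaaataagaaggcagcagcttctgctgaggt
Fads2, chr19:10101504-10101753, minus strand: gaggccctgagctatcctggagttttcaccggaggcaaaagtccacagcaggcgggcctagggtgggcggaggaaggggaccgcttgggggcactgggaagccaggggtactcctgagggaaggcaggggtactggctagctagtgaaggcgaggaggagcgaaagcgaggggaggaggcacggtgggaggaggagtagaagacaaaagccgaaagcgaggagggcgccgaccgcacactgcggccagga
Within the full 300 bases CAAAG was found 3 times in Acsbg1, once each in Fabp7 and Cpt1a, and not in Fads2, Elovl5 and Ppara. It was found on either strand in 54.0% of all 27025 RefSeq windows of this length. The Acsbg1 window had 47.0% G and C, the lowest of the 6 members, and that of Ppara 74.7%, the highest. The repeat bound by PPAR alpha, AGGTCANAGGTCA, and the sterol response element TCACNCCAC were found in none of the 6 windows and in 0.0444% and 1.22% of all windows.

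Of the 9 genes, 5 were lower in Sox2 cKO and 1 was higher at an adjusted p below 0.05 (edgeR quasi-likelihood test, Benjamini-Hochberg adjustment over all 16137 genes). Across all genes tested 24.6% passed, 12.4% as lower and 12.2% as higher. Fads2, Scd2, Acsbg1, Cpt1a and Ppara were lower by 17.5% to 38.5%, Fabp5 was 30.9% higher, and Fabp7, Clu and Elovl5 did not pass. The same 6 genes showed no overlap between groups in CPM, against 44.7% of all genes tested. The plot of the members by library shows these values. DESeq2 called the same 6, with 27.7% of all genes passing. With 3 mice against 3 the smallest p of an exact permutation test of a single gene is 0.1, and the two-sided exact p was 0.1 for these 6 genes and 0.2 to 0.5 for the other 3.

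**Figure D1:**
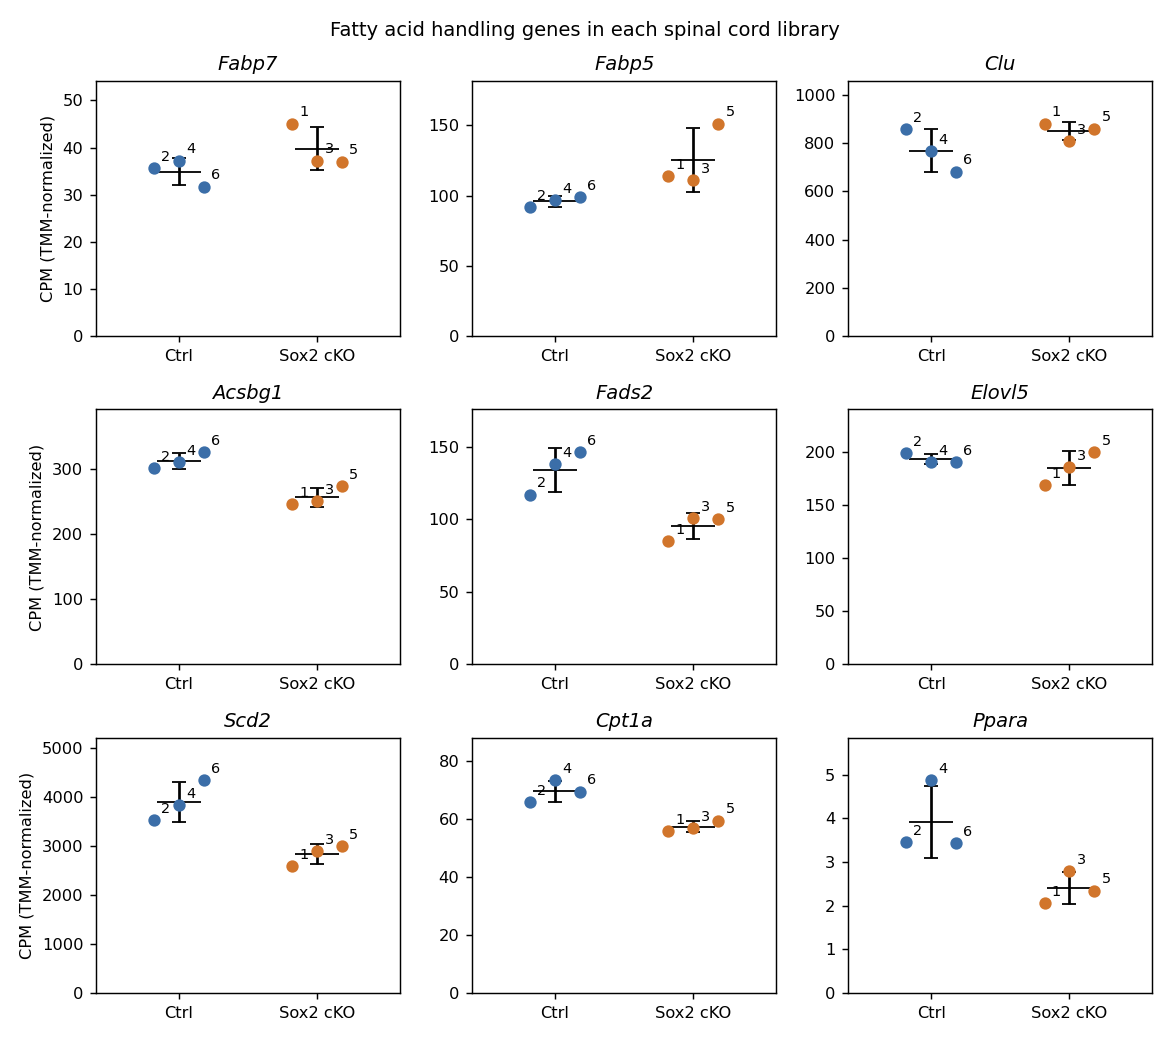
CPM of the 9 genes (vertical axes, TMM-scaled, from 0) in Ctrl libraries 2, 4 and 6 (blue) and Sox2 cKO libraries 1, 3 and 5 (orange), with black bars for the mean and SD. The groups are separate for Fabp5, Acsbg1, Fads2, Scd2, Cpt1a and Ppara and overlap for Fabp7, Clu and Elovl5.

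Fold changes of all genes followed gene length. The genes were divided into 5 groups of equal size by the length behind the FPKM values (fragments per kilobase of gene, scaled to the library total). In the shortest group, up to 1708 bases, the median log2 fold change was 0.30, and in the longest, from 4872 bases, it was -0.25. A fit that removed this trend from each library called 2109 genes in place of 3970, or 13.1% of those tested, and called 3 members: Fads2, Scd2 and Acsbg1. For 2 members that length was far from that of the longest protein-coding transcript of GENCODE M21. It was 1508 bases against 3150 for Fads2, and 3238 against 987 for Fabp5. For Cpt1a, Scd2 and Clu the lengths differed slightly, most for Cpt1a, at 4300 against 4317. With transcript lengths in the correction, chosen after these lengths were seen, 11.8% of genes and the same 3 members passed. The cause of the length trend was not tested, and RNA integrity could not be compared between libraries. Length-corrected values are given below beside each member that they change.

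**Figure D2:**
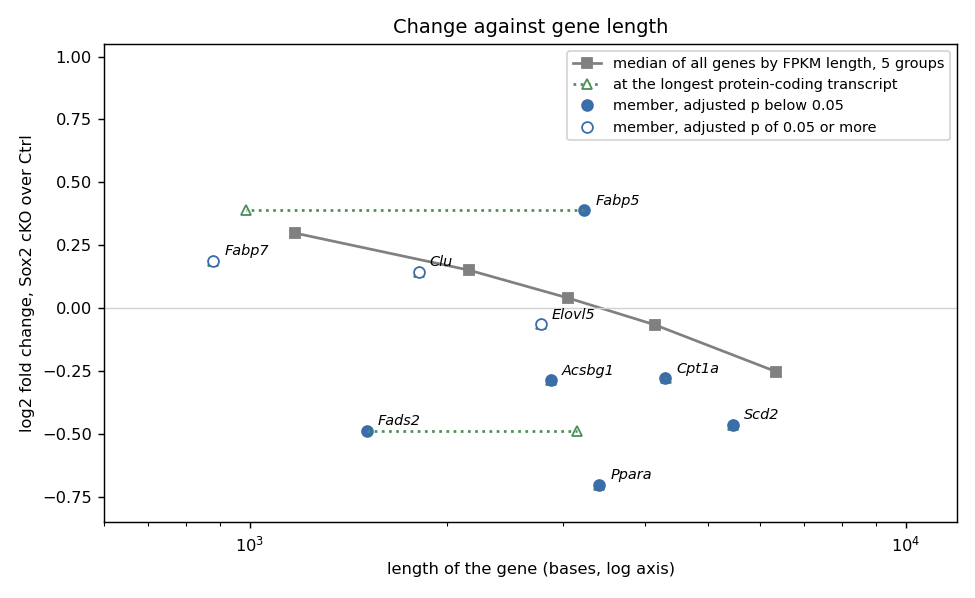
Log2 fold change (Sox2 cKO over Ctrl, vertical axis) against the length of the gene (horizontal log axis, bases). Grey squares are medians of all genes in 5 length groups, falling from 0.30 to -0.25, blue circles are members at the FPKM length (filled when the adjusted p was below 0.05), and green triangles are members at the longest protein-coding transcript, where Fabp5 moves from 3238 to 987 bases and Fads2 from 1508 to 3150.

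In FPKM, which corrects for length, the levels in Ctrl ran from Scd2 at 689 ± 55.1 FPKM (SD, n = 3) through Clu (411), Acsbg1 (105), Fads2 (85.5), Elovl5 (67.1), Fabp7 (38.3), Fabp5 (28.6) and Cpt1a (15.6) to Ppara at 1.11 ± 0.230 FPKM (SD, n = 3). No 2 neighbours in this order overlapped among the Ctrl libraries. In Sox2 cKO the FPKM of Scd2 and Clu, of Fads2 and Elovl5, and of Fabp7 and Fabp5 overlapped. The FPKM of Fads2 and Fabp5 rest on the lengths given above, so that their places depend on the annotation.

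Fabp7 (ENSMUSG00000019874, mm10 chr10:57784881-57788450, plus strand), the brain lipid-binding protein of radial glia and astrocytes, carries docosahexaenoic acid and other long-chain fatty acids. It was at 35.7, 37.3 and 31.7 CPM in Ctrl libraries 2, 4 and 6 and at 45.1, 37.3 and 37.0 CPM in Sox2 cKO libraries 1, 3 and 5. Only library 1 lay above all Ctrl libraries. The log2 fold change was 0.19 ± 0.11 (SE), with a 95% interval of -0.04 to 0.42 and an adjusted p of 0.21. This is the gene with the listed SOX2 site upstream, and with a transcript of 880 bases it is the shortest member. The length correction turned its value to -0.18, with an adjusted p of 0.21.

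Fabp5 (ENSMUSG00000027533, chr3:10012548-10016607, plus strand), the epidermal fatty acid-binding protein, also carries retinoic acid and is found in glia, endothelium and neurons. It was at 91.9, 96.6 and 99.1 CPM in Ctrl and at 114, 111 and 151 CPM in Sox2 cKO. All Sox2 cKO libraries lay above all Ctrl libraries, and library 5 stood apart from libraries 1 and 3. The log2 fold change was 0.39 ± 0.12 (SE), with an adjusted p of 0.037. It was 0.23 without library 5, with an adjusted p of 0.11. Library 5 also held the adipocyte marker sum of 4.23 CPM, whose part in this value was not tested.

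The processed pseudogene Gm6166 (chr9:57483963-57484371, plus strand) is 98.3% identical to Fabp5 over 409 bases, so reads can be placed on either. It held 723, 385 and 324 counts in Ctrl libraries 2, 4 and 6 and 855, 985 and 4 counts in Sox2 cKO libraries 1, 3 and 5. The library with almost no counts on Gm6166 is the library with the highest Fabp5. Added together, the pair gave 124, 113 and 115 CPM in Ctrl and 152, 145 and 152 CPM in Sox2 cKO, and library 5 no longer stood apart. For the sum, an alternative chosen after these counts were seen, the log2 fold change was 0.35 ± 0.08 (SE) and the edgeR adjusted p 0.016. Without a library the sum gave 0.32 to 0.39, with adjusted p-values of 0.0025 to 0.080.

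**Figure D3:**
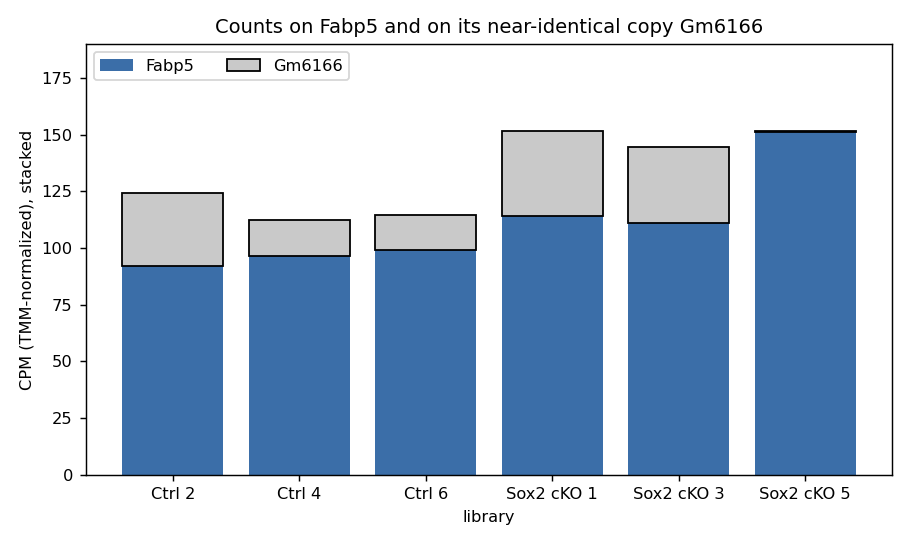
CPM on Fabp5 (blue) and on its near-identical copy Gm6166 (grey), stacked from 0, in each of the 6 libraries. The stack reaches 113 to 124 CPM in Ctrl and 145 to 152 CPM in Sox2 cKO, and the grey part is almost absent in Sox2 cKO library 5.

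The rise of Fabp5 depended on the length assigned to it. With the FPKM length of 3238 bases, the length-corrected log2 fold change was 0.37 with an adjusted p of 0.053. With the 987 bases of the protein-coding transcript it was 0.02 with an adjusted p of 0.93.

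Clu (ENSMUSG00000022037, chr14:65968483-65981547, plus strand) encodes clusterin, or apolipoprotein J, which astrocytes secrete on lipoprotein particles. It was at 859.8, 766 and 683 CPM in Ctrl and at 882, 810.4 and 861 CPM in Sox2 cKO. Sox2 cKO library 3 lay below Ctrl library 2, and the spread was wider among Ctrl. The log2 fold change was 0.15 ± 0.10 (SE), with an adjusted p of 0.30. Without Ctrl library 2 it was 0.23 with an adjusted p of 0.047 by edgeR and 0.022 by DESeq2, and with the length correction -0.05 with an adjusted p of 0.70.

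Acsbg1 (ENSMUSG00000032281, chr9:54604877-54661870, minus strand), the bubblegum acyl-CoA synthetase, activates long-chain fatty acids and is a widely used astrocyte marker. It was at 302, 311 and 327 CPM in Ctrl and at 246, 251 and 274 CPM in Sox2 cKO. The highest Sox2 cKO library lay below the lowest Ctrl library, and the SD within groups was 12.6 and 14.9 CPM. The level was 17.9% lower, a log2 fold change of -0.29 ± 0.08 (SE) with an adjusted p of 0.032. Corrected for length it was -0.34 with an adjusted p of 0.025. It is the member with a listed SOX2 site at its start.

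Fads2 (ENSMUSG00000024665, chr19:10062765-10101746, minus strand) encodes delta-6 desaturase, the first and rate-limiting step in making arachidonic and docosahexaenoic acid from dietary precursors. It was at 117, 138 and 146 CPM in Ctrl and at 84.8, 101 and 100.3 CPM in Sox2 cKO. Every Sox2 cKO library lay below every Ctrl library. The level was 28.7% lower, a log2 fold change of -0.49 ± 0.11 (SE) with an adjusted p of 0.015. The length correction gave a log2 fold change of -0.74 at the FPKM length and -0.51 at the transcript length, with adjusted p-values of 0.018 and 0.022.

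Scd2 (ENSMUSG00000025203, chr19:44293674-44306864, plus strand), the main stearoyl-CoA desaturase of the brain, makes monounsaturated fatty acids for membranes and myelin. It was the most abundant member, at 3522, 3837 and 4337 CPM in Ctrl and 2596, 2899 and 2993 CPM in Sox2 cKO. The groups were separate, with Ctrl library 6 highest and Sox2 cKO library 1 lowest. The level was 27.4% lower, a log2 fold change of -0.46 ± 0.10 (SE) with an adjusted p of 0.016. Corrected for length it was -0.29 with an adjusted p of 0.043. Its neighbour Scd1 is 94.7% identical over 624 bases and was itself 29.4% lower.

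Elovl5 (ENSMUSG00000032349, chr9:77917364-77984519, plus strand) encodes the elongase that extends polyunsaturated fatty acids between the desaturase steps. It was at 198.5, 190.4 and 190.4 CPM in Ctrl and at 168.5, 185.7 and 199.7 CPM in Sox2 cKO. The Sox2 cKO libraries lay on both sides of the Ctrl libraries. The log2 fold change was -0.06 ± 0.09 (SE), with a 95% interval of -0.26 to 0.13 and an adjusted p of 0.61. Corrected for length it was -0.13 with an adjusted p of 0.27. The difference between Elovl5 and the desaturases was not tested.

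Cpt1a (ENSMUSG00000024900, chr19:3322334-3385733, plus strand) encodes carnitine palmitoyltransferase I, which commits long-chain fatty acids to mitochondrial oxidation. It was at 65.8, 73.2 and 69.4 CPM in Ctrl and at 55.8, 56.7 and 59.4 CPM in Sox2 cKO. The groups were separate, and the Sox2 cKO libraries varied least of any member, with a coefficient of variation of 3.25%. The level was 17.5% lower, a log2 fold change of -0.28 ± 0.08 (SE) with an adjusted p of 0.027. With the length correction it was -0.19 with an adjusted p of 0.062.

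Ppara (ENSMUSG00000022383, chr15:85734983-85802819, plus strand) encodes PPAR alpha, a nuclear receptor that fatty acids activate and that drives genes of fatty acid oxidation, Cpt1a among them. It was the least abundant member, at 77, 117 and 71 counts in Ctrl and 47, 82 and 62 counts in Sox2 cKO. This was 3.45, 4.86 and 3.43 CPM against 2.06, 2.80 and 2.34 CPM. The groups were separate, although Ctrl library 4 stood above the other Ctrl libraries. The level was 38.5% lower, a log2 fold change of -0.70 ± 0.22 (SE) with a 95% interval of -1.18 to -0.22 and an adjusted p of 0.040. It was -0.51 without Ctrl library 4, with an adjusted p of 0.17, and -0.70 with the length correction, with an adjusted p of 0.057.

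**Figure D4:**
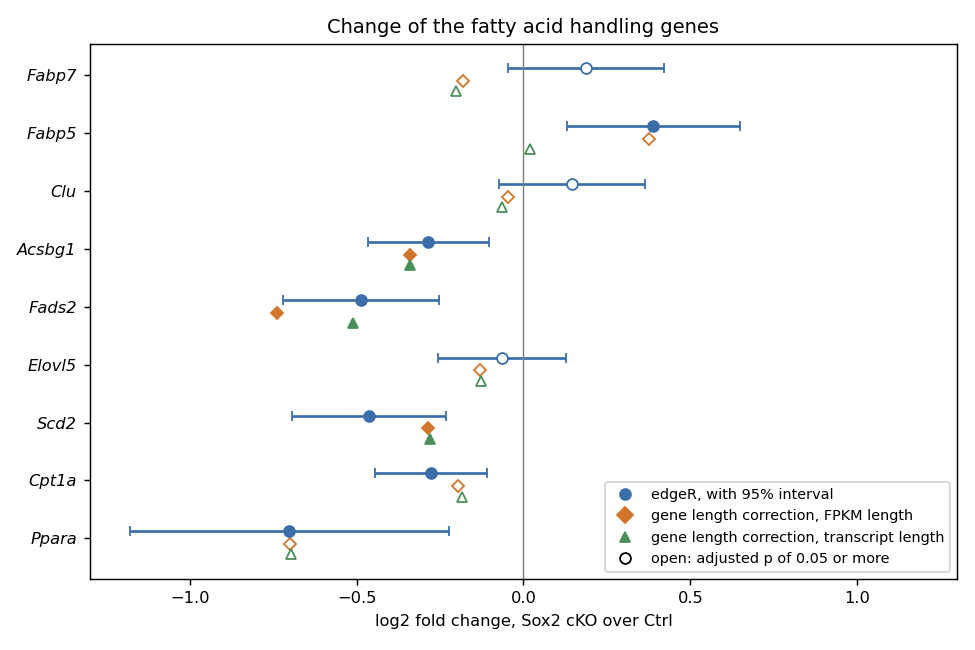
Log2 fold change (horizontal axis, Sox2 cKO over Ctrl) of the 9 members: circles with 95% intervals from edgeR, diamonds with the length correction at the FPKM length and triangles at the transcript length. Filled symbols had an adjusted p below 0.05, which Acsbg1, Fads2 and Scd2 have in all 3 fits, while Fabp5 moves from 0.39 to 0.37 and 0.02.

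The calls depended on single libraries. In edgeR without Ctrl library 4, Ctrl library 6 or Sox2 cKO library 1, 0 members passed, with 6 at an unadjusted p below 0.05 in each of these fits. Those fits called 26, 1082 and 8 genes in all. Without Sox2 cKO library 3 the members called were Fabp5 and Fads2, and without library 5 they were Acsbg1, Fads2 and Scd2. Without Ctrl library 2 they were Acsbg1, Clu, Fads2, Cpt1a, Ppara and Scd2. The direction of all 9 members held in the 6 fits. DESeq2 without a library called 3 to 7 members, with Fads2 and Scd2 called in all 6 of its fits, and without Ctrl library 4, Ctrl library 6 or Sox2 cKO library 1 it called 3, 3 and 4.

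Across the 6 libraries the 5 members that were lower varied together. Pearson's r of log2 CPM over the 10 pairs of these genes was 0.787 to 0.988, the closest pair being Fads2 and Scd2. The points share the libraries and the difference between the groups, so r describes the pattern and was not tested. Among 226 other members, pathway genes and markers, the gene most like Fads2 was Slc4a4, the astrocyte bicarbonate cotransporter (r = 0.995), and the gene most like Scd2 was Slc1a2, the glutamate transporter GLT-1 (r = 0.995). The log2 fold change of Slc4a4 was -0.71, and -0.41 with an adjusted p of 0.0185 when corrected for length. That of Slc1a2, a gene of 11595 bases, was -0.62, and -0.21 with an adjusted p of 0.093 when corrected for length. Acsbg1 was most like Scd2 (r = 0.974), Cpt1a most like Cspg4, a gene of oligodendrocyte precursors (r = 0.959) and Ppara most like its coactivator Ppargc1a (r = 0.963). Fabp7 was most like Mlxipl (r = 0.904), Fabp5 most like Ucp3 (r = 0.899), Clu most like Ehhadh (r = 0.967) and Elovl5 most like Acad9 (r = 0.937).

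The other genes of the same steps were taken as 8 lists, with 134 of their 141 genes tested. In all, 18 passed as lower and 17 as higher, or 26.1%, close to the 24.6% of all genes, and the median log2 fold change was 0.05 against 0.02 for all genes. After the length correction 15 passed, 9 lower and 6 higher.

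Among desaturases and elongases 3 of 16 were lower and 0 higher by edgeR, with 1 higher by DESeq2, and the median log2 fold change was -0.08. Across all genes tested 12.4% passed as lower by edgeR, and 13 genes of this list did not pass by edgeR. Fads1, the delta-5 desaturase that follows Fads2, was at 273, 315 and 360 CPM in Ctrl and 218, 214 and 208 CPM in Sox2 cKO. Its log2 fold change was -0.57 ± 0.10 (SE), with an adjusted p of 0.013 and 0.018 with the length correction. Hacd2, the dehydratase of the elongation cycle, had -0.55 with an adjusted p of 0.013, and 0.019 with the length correction. Scd1 had -0.50 with an adjusted p of 0.026, and 0.065 with the length correction.

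In fatty acid synthesis 4 of 15 genes were lower and 1 higher, at a median of -0.05. Fasn, the fatty acid synthase, was at 369, 534 and 533 CPM in Ctrl and 282, 315 and 311 CPM in Sox2 cKO, a log2 fold change of -0.66 with an adjusted p of 0.014. Acaca, which makes its malonyl-CoA substrate, had -0.68 with an adjusted p of 0.015, and Acacb, whose malonyl-CoA inhibits Cpt1a, had -0.50 with an adjusted p of 0.032. These are long genes of 8788 to 9587 bases, and the length correction gave -0.29 for Fasn and -0.31 for Acaca, with adjusted p-values of 0.042 and 0.043, and -0.15 for Acacb with 0.44.

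Among acyl-CoA synthetases and thioesterases 2 of 16 were lower and 1 higher, at a median of 0.01. Acsf2 fell by 0.79 on the log2 scale, with an adjusted p of 0.020. Acot2, a mitochondrial thioesterase, fell by 0.65 with an adjusted p of 0.040, and Acot13 rose by 0.31 with an adjusted p of 0.044. Corrected for length, Acot13 was at -0.07 with an adjusted p of 0.50. In the list of binding and uptake genes 4 of 15 were lower and 4 higher, at a median of 0.07. Dbi, the acyl-CoA-binding protein, was at 228, 157 and 165 CPM in Ctrl and 317, 320 and 294 CPM in Sox2 cKO, a log2 fold change of 0.76 with an adjusted p of 0.012 and, with the length correction, 0.38 with 0.035. Fabp3, the heart-type binding protein and a short gene like Fabp7, rose by 0.56 with an adjusted p of 0.015, and by 0.20 with 0.18 with the length correction. Fabp4, named after its value was seen as the largest change of the lists, is an adipocyte and capillary endothelial binding protein. It was at 0.224, 0.374 and 0.338 CPM in Ctrl and 1.63, 1.16 and 4.87 CPM in Sox2 cKO, with library 5 highest. Its log2 fold change was 3.01 with an adjusted p of 0.013, and without library 5, the library with the most adipocyte marker counts, it was 2.13 with an adjusted p of 0.024. It did not pass in 2 of the 6 edgeR fits without a library, those without Ctrl library 4 and without Sox2 cKO library 1, with adjusted p-values of 0.065 and 0.066. The lipoprotein receptor Lrp1 had -0.69 with an adjusted p of 0.015, and -0.21 with 0.093 with the length correction.

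The oxidation genes had medians above that of all genes, while Cpt1a was lower, a difference that was not tested. Across all genes tested 12.2% passed as higher by edgeR. In the carnitine shuttle and mitochondrial beta-oxidation 0 of 22 genes were lower and 3 higher by edgeR, and 0 were lower and 4 higher by DESeq2, at a median of 0.19. Acadm, the medium-chain acyl-CoA dehydrogenase, was at 29.3, 26.4 and 26.6 CPM in Ctrl and 36.3, 37.4 and 37.0 CPM in Sox2 cKO, a log2 fold change of 0.43 with an adjusted p of 0.013 and, with the length correction, 0.27 with 0.040. Etfdh, which passes the electrons of these dehydrogenases to ubiquinone, rose by 0.40 with an adjusted p of 0.025, and Eci2 rose by 0.30 with an adjusted p of 0.044. In peroxisomal oxidation 0 of 17 were lower and 3 higher by edgeR, and 4 were higher by DESeq2, at a median of 0.20. They were Decr2, Acaa1a and Phyh, with log2 fold changes of 0.42, 0.37 and 0.32. With the length correction the medians of these lists were 0.07 and 0.11, and 2 and 1 of their genes passed as higher. Eci2, Decr2 and Phyh were then at 0.07, 0.28 and 0.07, with adjusted p-values of 0.55, 0.092 and 0.50. Etfdh and Acaa1a passed at the FPKM length, at 0.44 and 0.40, but not at the length of the longest coding transcript. There they were at 0.29 and 0.15, with adjusted p-values of 0.066 and 0.22.

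Among partners and known targets of PPAR alpha 3 of 17 were lower and 2 higher by edgeR, and 4 lower and 1 higher by DESeq2, at a median of 0.06, while Ppara itself was lower. The target Angptl4, a secreted inhibitor of lipoprotein lipase, was higher, at a log2 fold change of 0.69 with an edgeR adjusted p of 0.038. It did not pass in DESeq2, with an adjusted p of 0.062, or in any edgeR fit without a library, where the adjusted p reached 0.12. It was at 1.62, 1.91 and 2.03 CPM in Ctrl and 3.25, 2.59 and 3.13 CPM in Sox2 cKO, and the groups were separate. The coactivator Ppargc1b had -0.64 with an adjusted p of 0.040. With the length correction the adjusted p of Angptl4 and Ppargc1b was 0.062 and 0.061. Among lipid droplet and lipolysis genes 2 of 16 were lower and 3 higher, at a median of 0.05. G0s2, an inhibitor of lipolysis, was at 7.13, 6.11 and 4.88 CPM in Ctrl and 13.5, 12.3 and 11.0 CPM in Sox2 cKO, a log2 fold change of 1.02 with an adjusted p of 0.012 and, with the length correction, 0.65 with 0.024. Hilpda rose by 0.82 and Gpam had -0.46, with adjusted p-values of 0.030 and 0.029. Corrected for length, Hilpda was at 0.47 with an adjusted p of 0.16 and Gpam at -0.42 with 0.047, or -0.23 with 0.12 when the longest coding transcript gave the length.

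**Figure D5:**
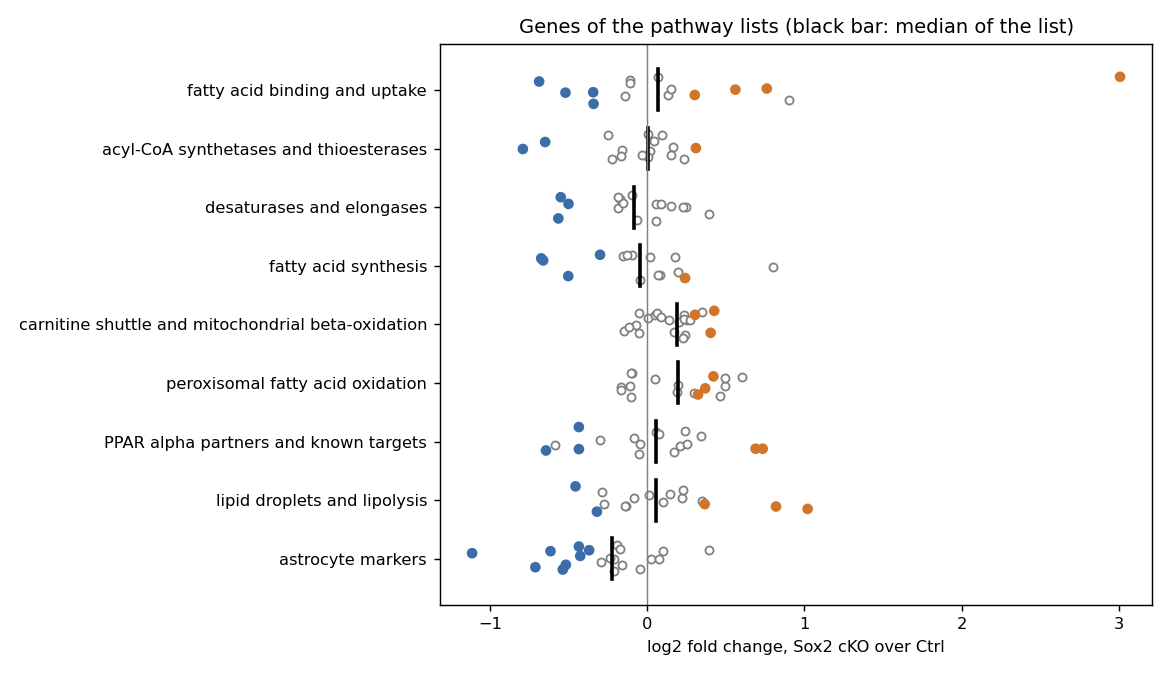
Log2 fold change (horizontal axis, Sox2 cKO over Ctrl) of every tested gene in the 8 pathway lists and the astrocyte markers. Each point is a gene, blue when lower and orange when higher at an adjusted p below 0.05 and open otherwise, and black bars are list medians, which run from -0.08 for desaturases and elongases to 0.20 for peroxisomal oxidation, with -0.23 for astrocyte markers.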

How the data were processed

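The authors aligned reads to mm10 with STAR 2.5, counted them per gene with HTSeq 0.6.1, and deposited raw counts and the FPKM values made from them. Whether counting used the strand is not given in the sources used here. Group means that the authors list for 1999 genes matched the column groups for 1999 genes as assigned and for 0 when exchanged. GENCODE M21 (GRCm38) named 34490 of the 35275 identifiers. Counts were tested with edgeR 4.0.16 in R 4.3.3 (filterByExpr, TMM, quasi-likelihood, no covariate, Benjamini-Hochberg at 0.05). The method was also run on simulated counts with the same dispersion for every gene, which cannot give its error rate in these data. CPM and the standard errors come from this fit, SD from the CPM, and n = 3 mice per group. Length corrections subtracted a lowess curve (span 0.3) from each library. Alternatives used DESeq2 1.42.0 and limma 3.58.1 on log2(FPKM + 1) and log2(FPKM + 0.1) at a mean FPKM of at least 0.5. Copies were taken as at least 93% identical over 200 bases. Columns of the authors' own fold changes and p-values were not used. Named genes are the 9 members, Sox2, up to 3 genes per pathway list with the largest change among those that passed at a mean count of at least 50, and the gene most like each member, with 1 list gene that the rule names not reported here. Others, Gm6166, Apoe and Acot1 among them, were named after their values were seen. The members, lists and tests were chosen with earlier results of these data known.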

Additional observations from a re-analysis of the deposited data

How the results depend on the processing

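No paired analysis was possible because the deposited columns carry no replicate numbers of the labels. Of 126 values of the 9 members under 14 alternatives each, 86 kept their direction and side of the threshold, 35 lost the call, 1 gained it and 4 changed sign, all 4 in genes without a call. The reversed values were those of Fabp7 (-0.18) and Clu (-0.0464) with the gene length correction, and of Elovl5 (0.0308 and 0.0312 at pseudocounts of 1 and 0.1) with limma on log2 FPKM. With transcript lengths in the correction, added after the data were seen, Fabp7 was at -0.20 and Clu at -0.0635. Members called went from 6 to 3 with limma at either pseudocount (Fabp5, Fads2 and Scd2), to 3 with either length correction (Acsbg1, Fads2 and Scd2), to between 0 and 6 in edgeR without a library, and to between 3 and 7 in DESeq2 without a library. Genes called went from 3970 to 2109 and 1887 with the length corrections, to between 8 and 6119 in edgeR without a library, and to between 1981 and 5624 in DESeq2 without a library. With limma 915 genes were lower and 2670 higher at a pseudocount of 1 and 896 and 2614 at 0.1, against 2008 and 1962 in edgeR, with medians over all genes of 0.09 and 0.11 against 0.02. DESeq2, upper quartile scaling, both other filters on low counts and the GC correction called the same 6 members. The causes of these changes were not tested. Ppara, at 47 to 117 counts, is the member that depth limits most.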
